A study of Mus musculus with 4 samples.

Results

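The endothelial connexin genes Gja1, Gja4, Gja5 and Gjc1 were described through the ATAC-seq peaks that overlapped each gene or the 50 kb on either side of it. ATAC-seq uses a transposase to insert adapters into open chromatin, and a peak marks an interval where insertions gathered. These windows held 49 of the 113056 merged regions of the series. A merged region joins peaks of different libraries that shared at least 1 bp, and a peak that overlapped no other is its own region. In 1 list alone were 4 of the 49 regions and 15126 of the series. The cells were FACS-sorted endothelial cells of mouse lung, in 2 libraries labelled Dnmt3a knockout (KO) and 2 labelled wild type (WT). Dnmt3a adds methyl groups to unmethylated DNA, and the design asks which regions are open in lung endothelium without it and with it. The Cre line or deletion behind the knockout, the strain, age and sex of the mice, and whether animals were pooled are not given in the sources used here. Nothing in the labels says that libraries of 1 genotype came from separate animals, so each p-value reflects the spread among these libraries alone. KO replicate 1 had the shortest list (85091 peaks, against 97627 to 101442 in the others), and KO replicate 2 stood apart in its sex-linked peaks, described with the checks of the libraries.

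Connexins are membrane proteins that assemble into channels, and channels of neighbouring cells dock to form gap junctions through which ions and small molecules pass. Gja5 encodes Cx40 and Gja4 encodes Cx37, the main connexins of arterial endothelium, where they couple cells along the vessel wall. Gja1 encodes Cx43, a widely expressed connexin that is also made by endothelial, smooth muscle and connective tissue cells. Gjc1 encodes Cx45, a connexin of the early vasculature, smooth muscle and cardiac conduction tissue.

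Most regions at the connexin genes were called in both genotypes, at a share near that of the whole series. Of the 49 regions, 34 (69.4%, 95% Wilson interval 55.5 to 80.5, counting error only) were called in all 4 lists, against 66.7% of all merged regions. The interval takes the regions as independent, though they lie in 4 windows and come from the same libraries. A region that both KO lists held and no WT list did (KO pattern) was found once, 46933 bp beyond Gja1, and a region with the reverse (WT) pattern was found once, inside Gja1. Those counts are 2.04% of the 49 regions each, while 1.12% of all regions had the KO pattern and 3.04% the WT pattern, so neither share lay far from its background. That background itself depends on list length: when every list was shortened to the length of KO replicate 1 by dropping its narrowest peaks, the series had 1952 KO-pattern and 1946 WT-pattern regions, in place of 1267 and 3434, and the connexin windows had 0 and 2. Without KO replicate 2, so that KO replicate 1 alone stood for KO, the counts were 2 KO-pattern and 7 WT-pattern regions, against 3471 and 12028 in the series. Without KO replicate 1 they were 2 and 2, against 6571 and 5631 in the series. In bulk chromatin, fewer cells with an open region and less opening per cell cannot be told apart. Gja4, Gja5 and Gjc1 had 0 regions of either pattern. Among protein-coding genes, 9.63% of windows of the same kind held a KO-pattern region, 19.8% a WT-pattern region, 2.81% both and 73.4% neither.

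The start of each gene (for Gjc1, whose strand the gene table does not give, its high-coordinate end) carried a peak in every library. For 3 of the 4 genes the RefSeq promoter table (GRCm38.p6, the mm10 assembly) gives the sequence, and the 250 bases before the start are shown because Dnmt3a methylates cytosine in CpG dinucleotides and because these intervals were open in both genotypes. CpG dinucleotides are in capitals and each sequence runs 5′ to 3′ towards the gene. The intervals are chr10:56377050-56377299 on the plus strand for Gja1, chr4:127314040-127314289 on the minus strand for Gja4 and chr3:97032152-97032401 on the plus strand for Gja5. Gjc1 had no entry.
Gja1: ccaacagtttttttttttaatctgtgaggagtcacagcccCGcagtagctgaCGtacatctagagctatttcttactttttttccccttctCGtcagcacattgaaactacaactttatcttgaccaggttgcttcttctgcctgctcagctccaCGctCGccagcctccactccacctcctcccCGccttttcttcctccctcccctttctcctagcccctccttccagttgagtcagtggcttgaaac
Gja4: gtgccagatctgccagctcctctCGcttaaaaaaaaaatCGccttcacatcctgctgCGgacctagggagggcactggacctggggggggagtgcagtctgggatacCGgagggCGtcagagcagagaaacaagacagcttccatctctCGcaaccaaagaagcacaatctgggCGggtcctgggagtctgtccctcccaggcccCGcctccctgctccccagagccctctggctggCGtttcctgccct
Gja5: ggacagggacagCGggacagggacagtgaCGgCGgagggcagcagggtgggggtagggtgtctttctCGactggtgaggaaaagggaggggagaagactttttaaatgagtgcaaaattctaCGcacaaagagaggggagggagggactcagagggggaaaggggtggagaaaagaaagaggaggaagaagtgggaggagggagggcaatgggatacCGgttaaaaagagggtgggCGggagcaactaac

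These promoters held 6 CpG dinucleotides for Gja1, 9 for Gja4 and 7 for Gja5, near the median of 6 over 32851 promoters. A promoter with 5 to 9 CpG had a peak in all 4 lists in 37.1% of 5843 cases, and in no list in 55.7%. With 20 or more CpG, 91.7% of 5896 promoters had one in all 4 lists, and with 0 to 4 CpG 9.03% of 14591 did. All 3 connexin promoters had a peak in each list. Peaks covered all 250 bases for Gja4 and Gja5 in every library, and for Gja1 220 and 220 bases in the KO libraries against 220 and 201 bases in the WT libraries. At Gja4 and Gja5 the measure was at its ceiling, so it could show no difference between genotypes there.

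**Figure D1:**
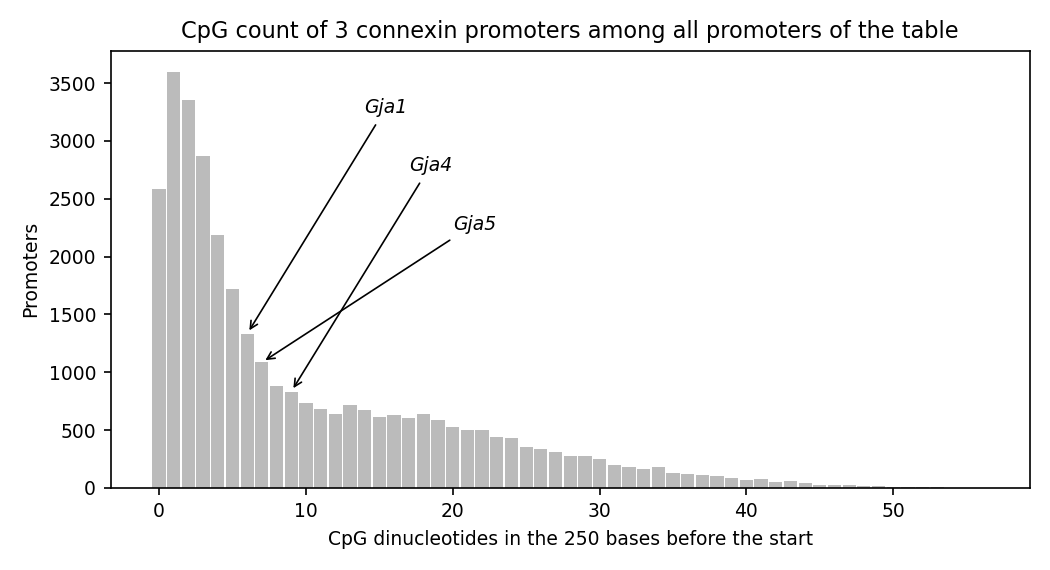
Histogram of the number of CpG dinucleotides (x axis) in the 250 bases before the start over 32851 promoters (y axis, promoters). Arrows mark Gja1 at 6, Gja5 at 7 and Gja4 at 9, right of the tallest bars.

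Short motifs of factors that act in endothelium were searched on both strands of the same 250 bases. GGAA, the core of ETS factor sites, had 3 matches at Gja1, 2 at Gja4 and 3 at Gja5, and 93.4% of all promoters held it. CACCC, the core bound by KLF factors, had 4 matches at Gja5 (52.0% of promoters hold 1 or more) and 0 at the other two. TGACTCA, the site of AP-1 factors, had 1 match at Gja1, 19 to 13 bases before the start and read there as TGAGTCA, and 4.46% of promoters held it. It lay within a peak of every library, KO and WT. GATAA, the core of GATA factor sites, had 1 match at Gja1 (22.6% of promoters) and ACAAT, a core of SOX sites, 1 at Gja4 (27.7%). No 2 of these matches overlapped, and a match describes sequence only.

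The peak over the Gja1 start (chr10:56377080-56377540) was 461 and 336 bp wide in KO libraries, against 366 and 366 bp in WT libraries. The WT values lay between the KO values. The log2 width difference, KO minus WT, was 0.19 ± 0.17 (standard error; limma, adjusted p = 0.935 over 75395 regions). At the Gja4 start (chr4:127313750-127314502) the widths were 717 and 647 bp in KO libraries, against 680 and 701 bp in WT libraries. That is again an overlap, with a log2 difference of 0.01 ± 0.08 (limma, adjusted p = 0.995). The Gja5 start (chr3:97031968-97032678) had peaks of 627 and 659 bp in KO libraries, against 630 and 631 bp in WT libraries, a log2 difference of 0.07 ± 0.10 (limma, adjusted p = 0.972). The Gjc1 region (chr11:102818430-102819913) was 1394 and 1236 bp wide in KO libraries, against 1313 and 1320 bp in WT libraries, the widest of the start regions in each library. Its log2 difference was 0.02 ± 0.08 (limma, adjusted p = 0.992). In KO replicate 1 this region held 2 separate peaks, and their widths were summed.

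**Figure D2:**
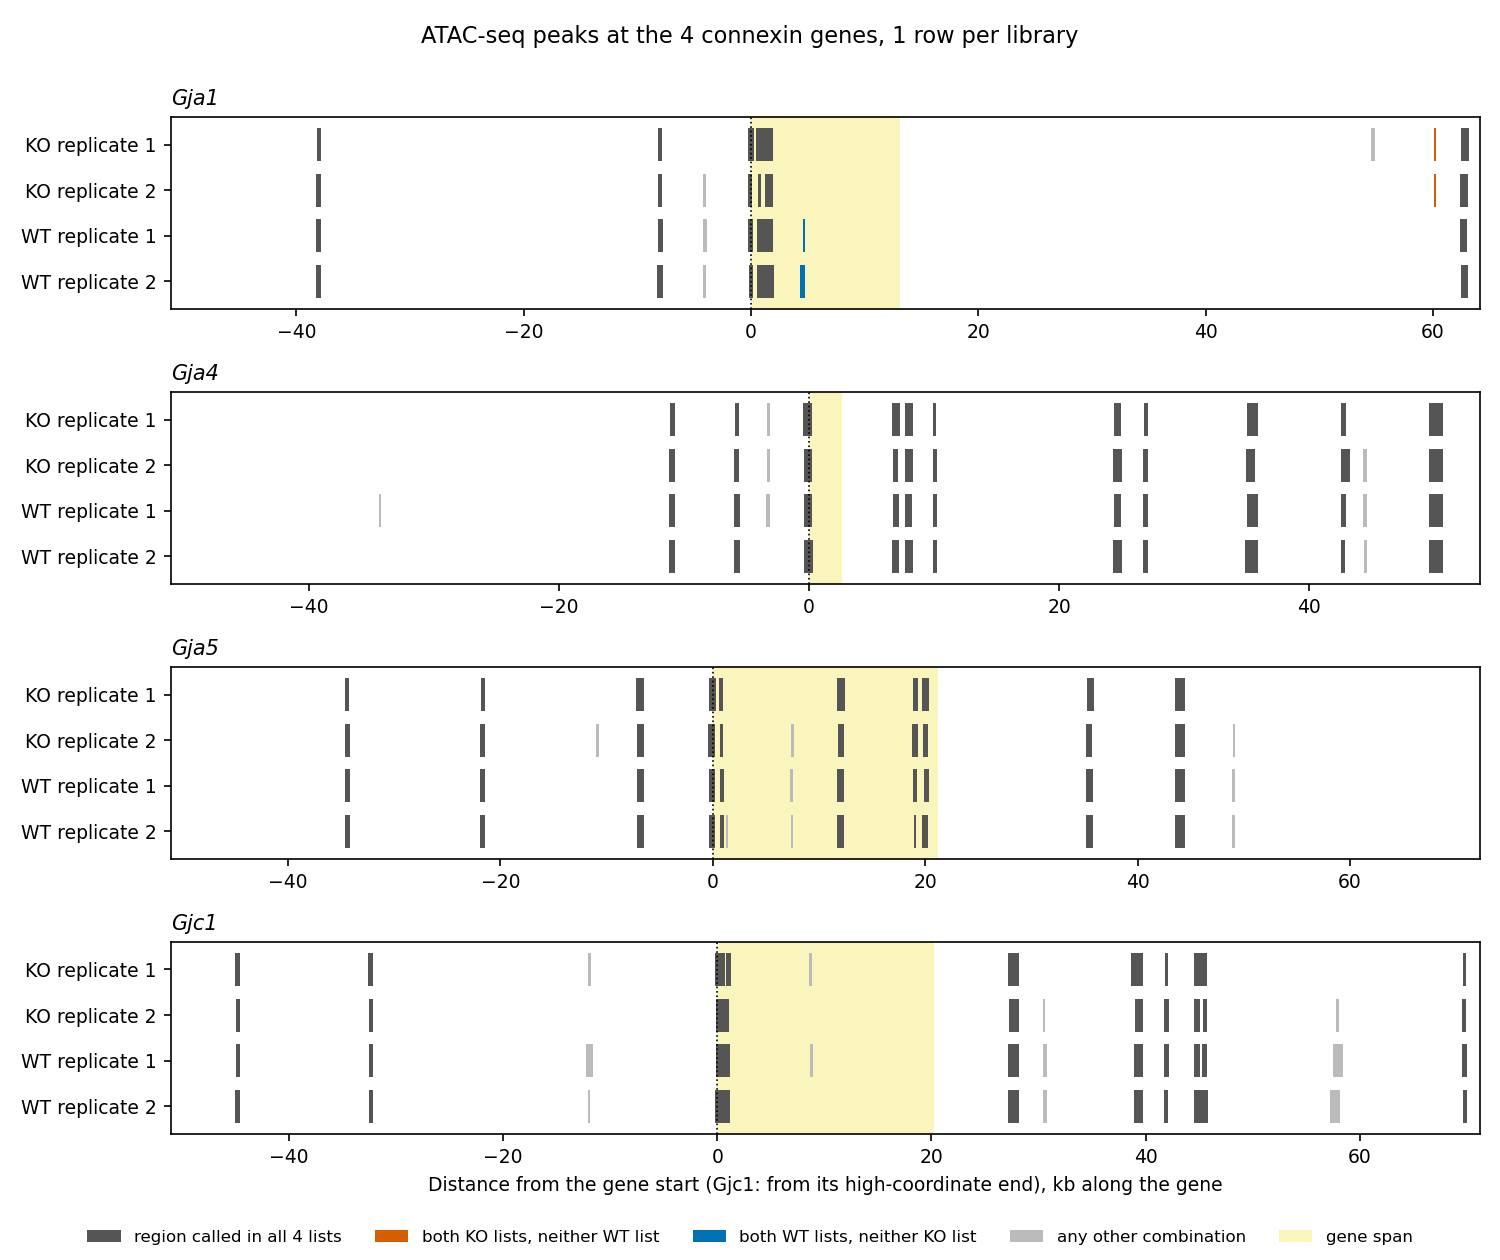
Peaks of each library (rows, KO above WT) against the distance from the gene start in kb, with the gene span shaded; for Gjc1 the distance is from its high-coordinate end. Dark bars are regions called in all 4 lists, orange and blue bars the KO-pattern and WT-pattern regions, both in the Gja1 window, and light bars any other combination.

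Gja1 had 9 regions in its window, fewer than the other genes, with 5 present in every list. The gene spans chr10:56377300-56390419 (gene identifier 14609), and 3 regions lay inside it. The longest shared region (chr10:56377770-56379292) begins just after the start peak. Its summed width was 1442 and 982 bp in KO libraries, against 1442 and 1493 bp in WT libraries. KO replicate 2 had 2 narrower peaks there, of 215 and 767 bp, where the other libraries each had 1 peak. The log2 difference was -0.27 ± 0.17 (limma, adjusted p = 0.922), and without KO replicate 2 it was -0.06.

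The WT-pattern region lay inside Gja1, centred 4545 bp after the start (chr10:56381607-56382083). No KO list had a peak there, while WT replicate 1 had 223 bp and WT replicate 2 had 460 bp. The closest KO peak was 2344 bp away. Within their own lists these WT peaks stood at the 7.1 and 53.0 width percentiles, so 1 of them was among the narrowest peaks that the list holds. The gene table gives no exons, and whether the region is intronic was not analysed here.

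The KO-pattern region (chr10:56437352-56437610) lay 46933 bp beyond the end of Gja1, within the span of the long non-coding RNA gene Gm36595. It was 201 and 259 bp wide in KO libraries and absent from both WT lists. The narrower of them has the smallest width found in any list. A second KO peak in the same stretch (chr10:56431891-56432164, 274 bp) was in KO replicate 1 alone. A region called in all 4 lists lay next along the chromosome (chr10:56439672-56440515), with 726 and 683 bp in KO libraries against 637 and 619 bp in WT libraries. Both KO peaks were wider there, with a log2 difference of 0.20 ± 0.08 (limma, adjusted p = 0.867). Upstream of Gja1, a region 3905 bp from the gene was missing from KO replicate 1 and had 298 bp in KO replicate 2, against 352 and 290 bp in WT libraries.

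Gja4 is a compact gene (chr4:127311420-127314039, gene identifier 14612) in a window with 14 regions, of which 11 were in every list. Only the start region overlapped the gene. Downstream of it lay 9 regions and upstream of it 4. For 7 of the 14 regions Gja4 was the nearest protein-coding gene. The longest (chr4:127263357-127264509), 46911 bp downstream, was 1150 and 1114 bp wide in KO libraries, against 1099 and 1125 bp in WT libraries.

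The pair of Gja4 regions with the smallest p-values had differences of opposite sign, and the KO and WT widths overlapped at neither. The first (chr4:127278110-127279152), 32268 bp downstream, was 868 and 690 bp wide in KO libraries, against 924 and 1043 bp in WT libraries, a log2 difference of -0.32 ± 0.12 (limma, adjusted p = 0.833). The second (chr4:127270827-127271548), 39872 bp downstream, was 393 and 712 bp wide in KO libraries, against 357 and 319 bp in WT libraries, a log2 difference of 0.77 ± 0.33 (limma, adjusted p = 0.869). That second value was 0.33 without KO replicate 2. Neither passed the adjusted threshold of 0.05, and Gja4 was the nearest protein-coding gene to neither.

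Gja5 (chr3:97032402-97053634, gene identifier 14613) had 14 regions, of which 10 were in every list, and it was the nearest protein-coding gene to every one. It was the member with the most open regions inside the gene, 7, against 3 for Gja1, 2 for Gjc1 and 1 for Gja4. Of these, 5 at Gja5, 2 at Gja1, 1 at Gjc1 and 1 at Gja4 were called in all 4 lists. Gja5 is also the longest member (21233 bp, against 13120 bp for Gja1, 20210 bp for Gjc1 and 2620 bp for Gja4). The counts are not scaled by length. The region with the smallest width p of all 34 shared connexin regions lay inside Gja5, centred 19056 bp after the start (chr3:97051196-97051720), where the long non-coding RNA gene 4930573H18Rik overlaps it. Its peak was 469 and 525 bp wide in KO libraries, against 329 and 249 bp in WT libraries. Both KO peaks were wider than both WT peaks, with a log2 difference of 0.91 ± 0.18 (limma, adjusted p = 0.607). It did not pass the adjusted threshold, and it was the only connexin region with an unadjusted p under 0.05. Among all regions of 4 lists, 2.85% were wider in KO at that unadjusted threshold and 3.18% were narrower. The neighbouring region (chr3:97052100-97052774) had 628 and 507 bp in KO libraries against 472 and 590 bp in WT libraries, which overlap.

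Of the other Gja5 regions, the one with the next smallest p (chr3:97067544-97068279, 13910 bp downstream) was 672 and 553 bp wide in KO libraries, against 703 and 695 bp in WT libraries. The log2 difference there was -0.16 ± 0.10 (limma, adjusted p = 0.922), and it was -0.08 without KO replicate 2. The longest shared one (chr3:97075904-97076845) was 896 and 933 bp wide in KO libraries, against 938 and 939 bp in WT libraries. A region inside the gene (chr3:97039706-97040013) and one 27623 bp downstream were missing from KO replicate 1 alone. In the first, KO replicate 2 had 250 bp, against 261 and 202 bp in WT libraries.

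Gjc1 (chr11:102799477-102819686, gene identifier 14615) had 12 regions, of which 8 were in every list. It was the nearest protein-coding gene to 3 of them, and the others lay nearer to Adam11, Higd1b or Eftud2. Inside the gene were the start region and 1 narrow region (chr11:102810722-102811083), called with 237 bp in KO replicate 1 and 273 bp in WT replicate 1. That combination follows no genotype. The smallest p in the window was at a region inside Eftud2 (chr11:102851864-102852308), 433 and 390 bp wide in KO libraries against 375 and 373 bp in WT libraries, a log2 difference of 0.23 ± 0.09 (limma, adjusted p = 0.866). It was 0.14 without KO replicate 1, and also 0.14 without quantile normalisation. At the far edge (chr11:102749650-102750150) the widths were 262 and 351 bp in KO libraries, against 439 and 356 bp in WT libraries, a log2 difference of -0.23 ± 0.17 (limma, adjusted p = 0.923). That value was -0.08 without KO replicate 1 or without WT replicate 1, and -0.40 without KO replicate 2 or without WT replicate 2.

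A region singled out after its values were seen lay inside Adam11, 37047 bp from Gjc1 (chr11:102761210-102762430). It was missing from KO replicate 1 and 347 bp wide in KO replicate 2, against 1003 and 905 bp in WT libraries. These WT peaks stood at the 94.5 and 90.7 width percentiles of their lists, and the KO replicate 2 peak at 36.0. With 3 lists calling it, the region has neither genotype pattern and entered no width test.

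**Figure D3:**
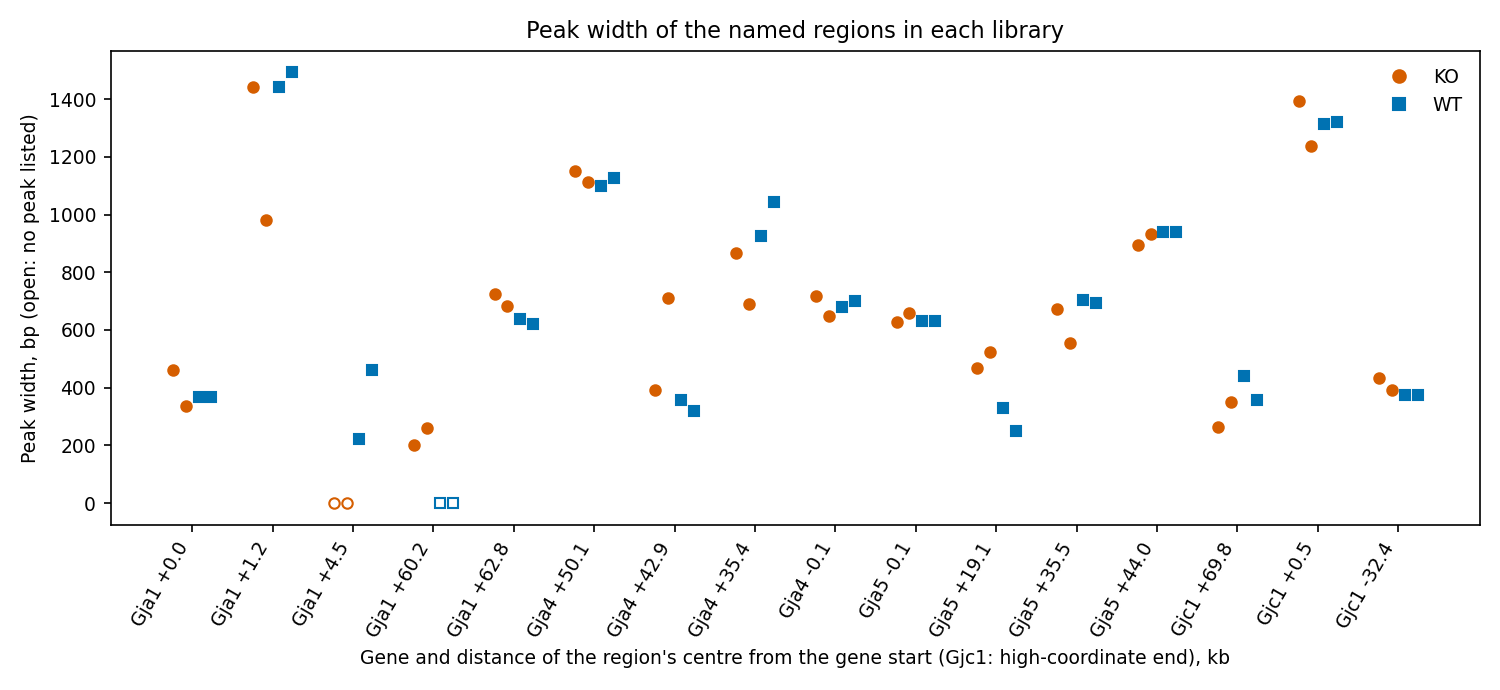
Peak width in bp (y axis) of the named regions in each library, KO circles left of WT squares, with the distance of each region's centre from the gene start in kb on the x axis. Open symbols at 0 mean that the list had no peak, as for both KO lists at the Gja1 region 4.5 kb after the start.

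No shared connexin region had a width difference past the adjusted threshold. Of the 34, 0 passed limma's test at an adjusted p under 0.05, and 1 had an unadjusted p under 0.05. In the whole series 0 of 75395 passed (0%), and 6.03% had an unadjusted p under 0.05. The median log2 difference was 0.02 over the 34 regions and 0.01 over the series, after quantile normalisation. As deposited, both KO peaks were narrower than both WT peaks at 12 of the 34 (35.3%), and both were wider at 4 (11.8%). Of the 75395 regions of the series called in all 4 lists, 27.1% were narrower and 7.37% wider in this way. Each gene had 1 region of the wider kind, and the narrower kind numbered 2 at Gja1, 4 at Gja4, 4 at Gja5 and 2 at Gjc1. On simulated widths the test recovered 0 of 50 planted log2 shifts of 1, 16 of 50 shifts of 2 and 40 of 50 shifts of 3 among 75395 regions, and 0 unchanged regions were called. All 34 connexin differences were smaller than 1 on the log2 scale, a size at which the test made no calls, so the absence of calls does not show equal widths.

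**Figure D4:**
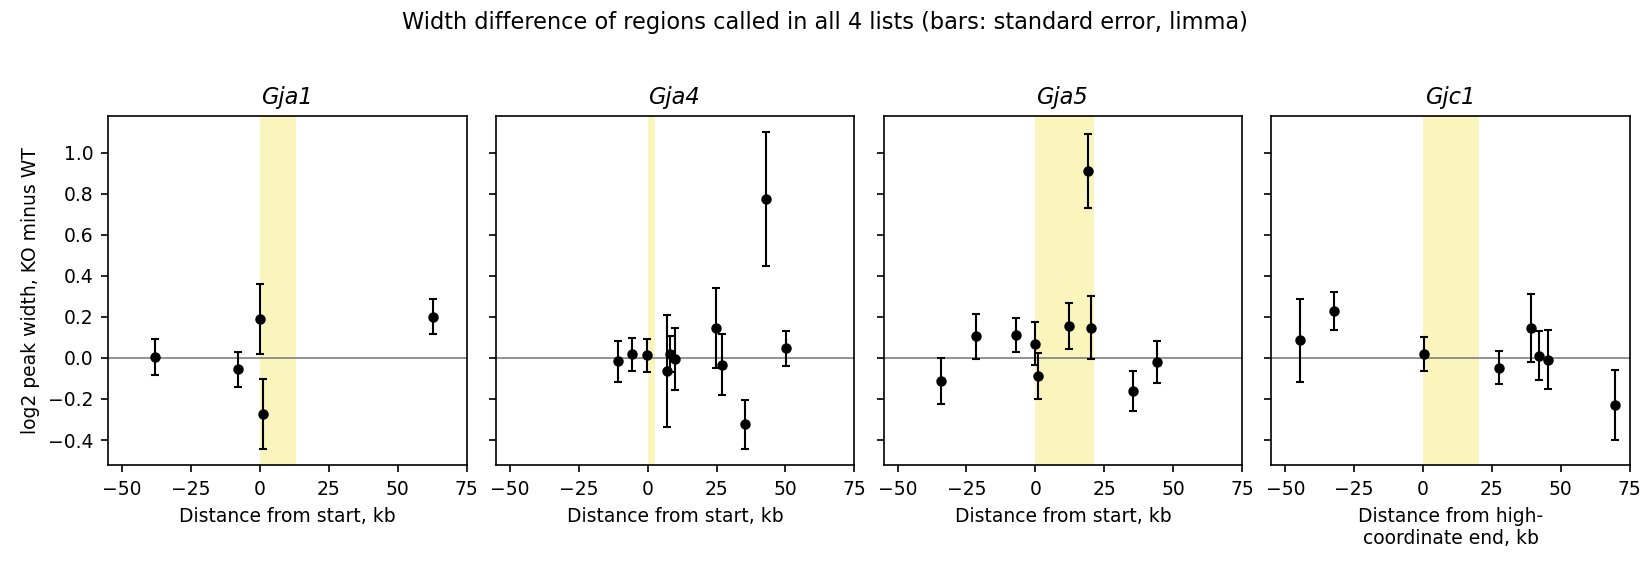
Difference in log2 peak width, KO minus WT (y axis, points, with the standard error from limma), against the distance from the gene start in kb for the 34 regions called in all 4 lists; the gene span is shaded. The highest points are the Gja5 region at 0.91 and the Gja4 region at 0.77, and the 4 start regions lie between 0.01 and 0.19.

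Most peaks in connexin regions missing from some lists were narrow. Peaks in the 15 regions that lacked a call in 1 or more lists had a median width of 272.5 bp (201 to 1003 bp), against 548 bp (249 to 1493 bp) in the 34 shared regions. In those 15 regions 31 widths were at 500 bp or under and 3 were over it, against 63 and 73 in the shared regions. The same contrast was not made over the series. KO replicate 1 lacked 10 of the 49 regions, KO replicate 2 lacked 6, WT replicate 1 lacked 4 and WT replicate 2 lacked 6. These totals were not counted over the series. The only list without a call was KO replicate 2 at 2.04% of the regions (1.82% over the series). It was WT replicate 1 at 0% (0.716%) and WT replicate 2 at 2.04% (0.931%). KO replicate 1 was the only list without a call at 6 regions (12.2%), while over the series it was so at 7.59%. That list was also the shortest of the 4. The part of list length in these missing calls was not tested.

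Peak numbers in the windows overlapped between genotypes. Together the windows held 40 and 45 peaks in KO libraries, against 46 and 43 in WT libraries (42.5 ± 3.54 and 44.5 ± 2.12, SD, n = 2 each; two-sided exact permutation p = 0.667, where the design allows no p under 0.33). Without KO replicate 1 the difference in means, KO minus WT, was 0.5 in place of -2. Gja1 had 7 and 8 peaks in KO libraries, against 7 and 7 in WT libraries. Gja4 had 12 and 13 in KO libraries, against 14 and 12 in WT libraries. Gja5 had 10 and 13 in KO libraries, against 12 and 13 in WT libraries, and Gjc1 had 11 and 11 in KO libraries, against 13 and 11 in WT libraries. The groups overlapped or shared a value at each gene. Over protein-coding windows, both KO libraries had more peaks than both WT libraries in 2.93% and fewer in 12.2%.

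Covered sequence, the base pairs of the window lying under peaks, was lower in both KO libraries than in both WT libraries at Gjc1 and Gja1, and at Gjc1 this rested on sequence over 10 kb from the gene. At Gjc1 it was 6702 and 5961 bp in KO libraries, against 7968 and 7402 bp in WT libraries (6331.5 ± 524 and 7685 ± 400.2, SD, n = 2 each). The KO mean was 17.6% below the WT mean, and the exact permutation p was 0.33, the smallest this design can give (adjusted over the 4 genes, 0.667). The region inside Adam11 made up 57.7% of this difference, and without it the difference was -573 bp in place of -1353.5 bp. With 10 kb on either side of the gene the Gjc1 difference was -65 bp and the groups overlapped (exact permutation p = 1.0). At Gja1 the covered sequence was 3776 and 3350 bp in KO libraries, against 3847 and 4079 bp in WT libraries (3563 ± 301 and 3963 ± 164, SD, n = 2 each; exact permutation p = 0.33, adjusted 0.667), a KO mean 10.1% lower. This Gja1 difference of -400 bp was -187 bp without KO replicate 2 and -613 bp without KO replicate 1, and with the 10 kb window it was -774.5 bp. The WT-pattern region inside Gja1 contributed -341.5 bp to it and the KO-pattern region 230 bp.

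Over the 4 windows together, peaks covered 23010 and 22619 bp in KO libraries, against 25141 and 24793 bp in WT libraries (22814.5 ± 276 and 24967 ± 246, SD, n = 2 each; exact permutation p = 0.33), a difference of -2152.5 bp that was -759 bp with the 10 kb windows. Such a separation was common. Both KO libraries were below both WT libraries in 42.6% of 18917 protein-coding windows with a peak, and above them in 4.33%, and the KO lists covered 7.05% less sequence in the whole series. The ratio of KO to WT coverage was 0.824 at Gjc1 and 0.899 at Gja1, against a median of 0.944 over windows, and Gjc1 stood at the 12.1 percentile. Gja4 had 6608 and 6915 bp in KO libraries, against 7106 and 6881 bp in WT libraries, and Gja5 had 5924 and 6393 bp in KO libraries, against 6220 and 6431 bp in WT libraries. The groups overlapped at both, with a ratio of 0.967 at Gja4 and 0.974 at Gja5 (exact permutation p = 0.667 for each).

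Within the gene bodies the separation was at Gja1 alone. Peaks covered 1683 and 1098 bp of Gja1 in KO libraries, against 1811 and 2118 bp in WT libraries, and both KO values were lower. Inside genes, both KO libraries were lower in 31.9% of 16259 protein-coding genes and higher in 5.79%. Gja5 had 2470 and 2452 bp covered in KO libraries, against 2267 and 2543 bp in WT libraries. Gjc1 had 1404 and 1127 bp in KO libraries, against 1426 and 1142 bp in WT libraries, and Gja4 had 254 and 265 bp in KO libraries, against 257 and 290 bp in WT libraries. At these 3 genes the groups overlapped.

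As a share of all base pairs covered in the library, in ppm, the order of the genotypes differed by gene. Gjc1 was again lower, with 144 and 125 ppm in KO libraries against 156 and 147 in WT libraries (15.6% of windows separate this way). Gja4 was higher, with 142 and 145 ppm in KO libraries against 139 and 136 ppm in WT libraries (24.2% of windows separate that way). Gja1 had 81.0 and 70.1 in KO libraries against 75.3 and 80.8 in WT libraries, and Gja5 had 127 and 134 ppm in KO libraries against 122 and 127 ppm in WT libraries. The groups overlapped at both. In both genotypes Gja1 had the least covered window of the 4. No library of it reached the lowest value of another gene.

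**Figure D5:**
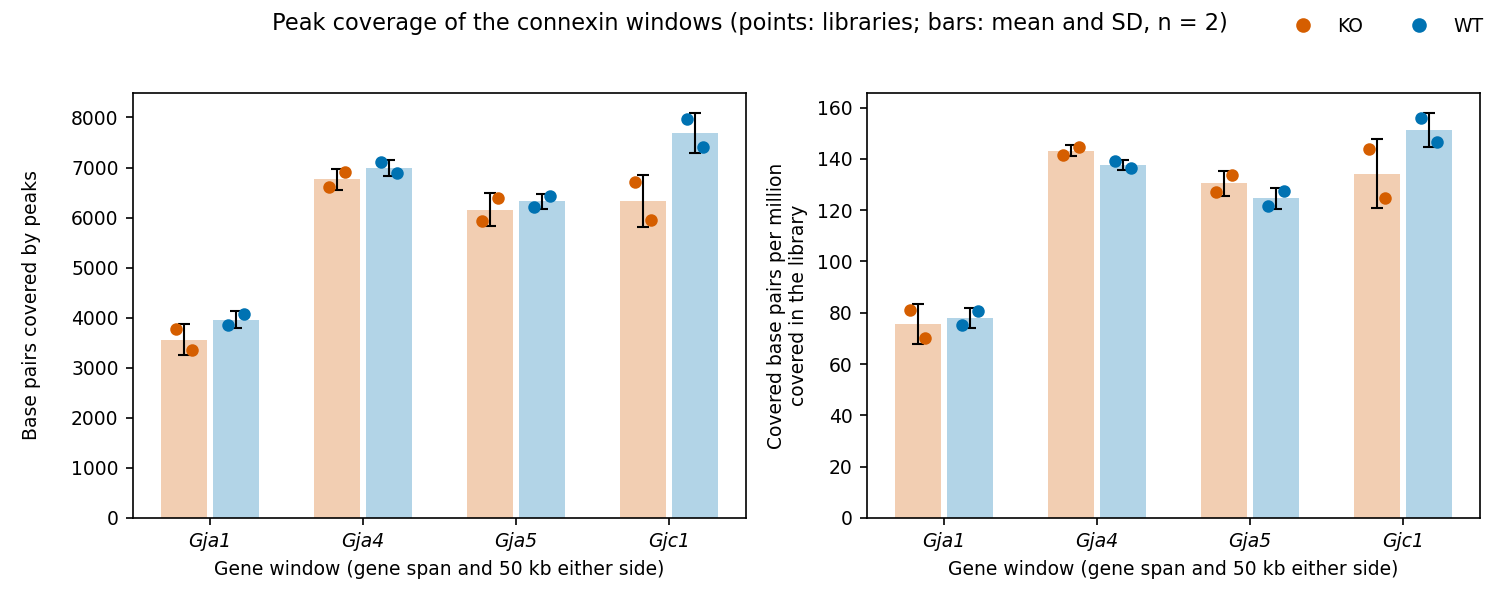
Base pairs covered by peaks in each window (left) and the same as a share of all base pairs covered in the library, in ppm (right), KO left of WT; points are libraries and bars the mean with its SD (n = 2). KO points lie below WT points at Gja1 and Gjc1 on the left, and at Gjc1 alone on the right, where Gja4 is higher in KO.

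The density of open regions placed the connexin windows above the middle of the genome. Gja4 had 13.6 regions per 100 kb of window (84.9 percentile of 21887 protein-coding genes), Gja5 11.5 (76.7 percentile), Gjc1 9.98 (69.0 percentile) and Gja1 7.96 (57.6 percentile), against a median of 6.72. The genes whose coverage over the 4 libraries was most like that of a member, by Euclidean distance of log2(ppm + 1), were Tmem18 for Gja1 (distance 0.05), Klhdc1 for Gja4 (0.03), Setdb1 for Gja5 (0.01) and Psma5 for Gjc1 (0.05). Between 14470 and 14477 genes were compared for each member over 4 libraries. At the window edges, the outermost region inside lay 49327 bp from Gjc1, and the closest outside lay 50364 bp from Gja1 (348 bp, in WT replicate 1 alone).

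The other connexin and pannexin genes, whose products form related channels, served as a second list. Peaks overlapped the 1000 bp around a gene end at 6 and 8 of the 19 genes in KO libraries, against 8 and 9 in WT libraries. Those with one in all 4 lists included Gja10, Gjb2, Gjd3 and Panx1. Of their 132 regions 67.4% were called in all 4 lists, 3 (2.27%) had the KO pattern and 6 (4.55%) the WT pattern, against 1.12% and 3.04% of all regions. Gjd3 and Panx3 each had 1 of the KO pattern in their windows. Of the WT pattern, Gje1 had 2, the overlapping windows of Gja3 and Gjb2 shared 2, and Panx2 had 1. Gjc3 had no peak in its window in any list.

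Genes of proteins that work beside endothelial gap junctions had a peak at a gene end in every library at 6 of 6. They included Tjp1, which encodes a scaffold protein of the zonula occludens, Cav1, the caveolin gene, Ctnnb1, the beta-catenin gene, Nos3, the endothelial nitric oxide synthase gene, and Cdh5, the VE-cadherin gene. Their windows held 180 regions, 2 (1.11%) of the KO and 9 (5.0%) of the WT pattern, against 1.12% and 3.04% of all regions. Tjp1 had 6 of the WT-pattern regions and 1 of the KO pattern, in a window of 52 regions. In single libraries, 62.8% to 65.4% of all protein-coding genes had a peak at a gene end.

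The identity of the cells was checked at the same gene ends. All 10 endothelial markers had a peak in each library. Of 24 markers of mural cells, fibroblasts, epithelium and leukocytes, 14 and 15 did so in the KO libraries, against 16 and 14 in the WT libraries. Mural markers, from cells that also make Cx43 and Cx45, numbered 5 and 5 of 6 in KO libraries, against 6 and 5 in WT libraries. A peak at a gene end is common, at 62.8% and 65.0% of protein-coding genes in KO libraries and 65.4% and 65.1% in WT libraries, so it does not by itself show another cell type. Dnmt3a held 15 and 20 peaks in KO libraries, against 19 and 18 in WT libraries, and peak positions do not show a deletion. Peaks at 4 Y-linked genes were found for 4 and 0 genes in KO replicates 1 and 2, against 3 and 4 in WT replicates 1 and 2, and Xist had an end peak in KO replicate 2 alone. KO replicate 2 thus stood apart in its sex-linked peaks, and the sex of the mice is not in the labels used here.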

How the data were processed

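Peak lists of 4 ATAC-seq libraries (2 KO, 2 WT, grouped by title) were used. Per the labels' protocols, nuclei of sorted cells were tagmented before PCR. Cutadapt, Bowtie2, Picard and mm10 stand in the submitters' processing notes with no versions or roles, and the peak caller and its threshold are not given in the sources used here. Each list deposited by the authors holds positions and widths for 1 library, with no score or read count, so depth is unknown and a region missing from a list need not be closed. Per the file headers, the only other measurement is peak width in base pairs, which the authors did not normalise.

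Only chromosomes 1 to 19, X and Y were used. Peaks sharing 1 bp were merged, and windows and gene spans came from RefSeq (GRCm38.p6). Widths were summed per region and list, quantile-normalised on the log2 scale and fitted with limma (lmFit, eBayes) over every region of all 4 lists, with Benjamini-Hochberg adjustment over all of them. Other library values were compared by two-sided exact permutation. Regions named were those of either genotype pattern, over a gene start, the longest shared, and the 2 with the smallest p per gene; like genes had at least 5 peaks per library on average, with 1 added before the logarithm. The members, lists and tests were chosen with earlier results of these data known. Merging and limma were tested on simulated data. Alternatives covered merging, list length, peak width, window, absence, scaling, block and each library left out. The tools were R 4.3.3 with limma 3.58.1, and Python 3.11.15 with scipy 1.17.1, pandas 2.3.3, numpy 2.4.6 and matplotlib 3.10.9. Some items that the rule or the lists gave are not reported here.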

Additional observations from a re-analysis of the deposited data

How the results depend on the processing

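The KO-pattern and WT-pattern counts, 1 each, were unchanged when peaks were joined at 50% of the narrower peak or when no peak of the other genotype was allowed within 500 bp. With equal list lengths by width they were 0 and 2, the Gja1 regions of both patterns being lost; with a 10 kb window the KO-pattern count was 0. When peaks narrower than their list's median were dropped, the counts were again 1 and 1, but at other regions. They were the Gja5 region centred 19056 bp after the start for KO and the region inside Adam11 for WT. At Gja5 the filter dropped the WT peaks of 329 and 249 bp (list medians 431 and 443 bp). The KO replicate 1 peak of 469 bp passed a median of 467 bp. At Adam11 it dropped the KO replicate 2 peak of 347 bp (median 407 bp). Without each library in turn, KO-pattern regions numbered 1 to 2 and those of the WT pattern 2 to 7, since a pattern then needs fewer lists. The share called in every list was 70.8% to 83.3% without each library. The total peak number difference was -4.5 to 0.5 and the covered difference -2348 to -1957 bp without each library. As a share of the library, the covered difference over the 4 windows was -8.18 ppm, and the groups overlapped. By gene, the peak number difference turned at Gja1 to -1 with wide peaks and with the 10 kb window, at Gja4 to 0.5 and at Gjc1 to 0.5 with the 10 kb window, and at Gja5 to 1 with wide peaks; without each library it was -1.5 to 0.5 at Gja4 (0.5 without WT replicate 1) and -2.5 to 0.5 at Gja5 (0.5 without KO replicate 1). The covered difference at Gja5 turned to 479.5 bp with wide peaks, 86 bp with the 10 kb window and, over the libraries left out, -401.5 to 67.5 bp (67.5 without KO replicate 1), and as a share of the library it was 5.52 ppm for Gja4 and 5.85 ppm for Gja5. The cause of these turns was not tested.

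No setting that kept all 4 libraries gave a connexin region with a width difference at an adjusted p under 0.05 by limma. At an unadjusted p under 0.05 these settings had 1 or 2 connexin regions, against 4394 to 5112 regions of the series. The median log2 difference was -0.031 without quantile normalisation, which moved the series median to -0.05. With the replicate block it was 0.02, with 2 regions at an unadjusted p under 0.05. The width deviations of KO replicate 1 and WT replicate 1 had a correlation of -0.04 over 75395 regions. With 2 libraries per genotype this sets 1 contrast against 1 other, so it cannot show whether the replicate numbers pair libraries. Every region named for its p kept its direction, but these regions were picked by p from the same widths. The replicate block and the 10 kb window also leave the estimate unchanged, so the kept direction is no independent check. The Gja5 region with the smallest p ranged from 0.71 to 1.13 on the log2 scale. Depth could not be read from lists without counts.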
